A study of Mus musculus with 610 samples.

Results

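Cdk6, Mcm2, Dna2 and E2f2 are the cell cycle and DNA replication genes of a panel of 48 quantitative PCR assays that was read in 610 single mouse thymocyte progenitors. The 4 genes were taken by name, and each was read in every cell. A gene counted as detected in a cell when its threshold cycle (Ct, the PCR cycle at which the signal crosses a set line) was below 24, the ceiling of the deposited values. Its level was 24 minus Ct, so that 1 unit is 1 PCR cycle and an undetected reaction is 0. Of 32 cell cycle and replication genes listed for this purpose, these 4 were the ones in the panel.

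Cells were sorted from the thymus into 4 populations, in a study of where interleukin 17 producing gamma delta T cells come from. For B6 DN1d the mice were C57BL/6J at postnatal days 7 to 10, and the sorted cells were live, TCR delta negative, lineage negative, CD44+, CD25-, CD24+ and cKit-. They gave 223 cells in 3 runs of 72, 70 and 81. Tcrd-/- DN1d cells carried the targeted allele Tcrd tm1Mom (strain B6.129P2), had the gate and age range of B6 DN1d, and gave 86 cells in 1 run. B6 DN2 cells, TCR delta negative, lineage negative, CD44+, CD25+ and cKit+ with no CD24 gate, were sorted from C57BL/6J mice of the same ages as a single run of 78. Rag1-/- cKit- cells carried Rag1 tm1Mom (strain B6.129S7), were TCR delta negative, lineage negative, CD44+, CD25- and cKit- with no CD24 gate, and were taken at postnatal days 0 to 2. They gave 223 cells in 3 runs of 89, 52 and 82. Rag1-/- cells therefore differed from B6 DN1d in genotype, age and gate at once, and these cannot be told apart. The run names in the titles read as dates, and by them all B6 runs precede all Rag1-/- and Tcrd-/- runs, so run period and genotype cannot be told apart either. The labels name no animals behind a run, so each p-value reflects run-to-run spread alone, and this can be technical.

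All 4 genes act around the entry into and passage through S phase. Cdk6 is a kinase that, with a D-type cyclin, phosphorylates the retinoblastoma protein in G1 and so releases E2F factors, of which E2f2 is an activating member. Mcm2 is a subunit of the MCM2-7 helicase that is loaded on origins and unwinds DNA at the fork, and Dna2 is a nuclease and helicase that trims Okazaki fragments and processes DNA ends. In the thymus, early progenitors divide repeatedly on the way through the DN2 stage, before the receptor genes are rearranged in full, and Cdk6 is known for a role in thymocyte expansion.

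Gapdh, the reference gene, was detected in 100% of cells of every run, with a mean level of 14.2 to 15.6. The mean number of the 44 other assays detected per cell was 17.5 to 18.7 in the B6 DN1d runs, 19.5 to 21.8 in the Rag1-/- runs, 24.8 in DN2 and 28.3 in Tcrd-/- DN1d, so it moved with the groups. The rearranged receptor segments Vg2-Jg1 and Vd4-Jd1 had no detection among the 223 Rag1-/- cells (0 of 223, upper limit 1.35%). Vd4-Jd1 was detected in 52.3% of Tcrd-/- DN1d cells, and the Tcrd-/- genotype was not otherwise checked. Genes of the gate proteins CD44, CD25, CD24 and cKit were not among the assays. The T lineage factor Tcf7 was detected in 78 of 78 DN2 cells and the progenitor factor Myb in 78 of 78.

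The sequences before the members' starts are shown because Cdk6, Mcm2 and Dna2 were all highest in DN2 while E2f2 was not. They are RefSeq windows of assembly GRCm38.p6, 250 bases before to 50 after an annotated start, searched on both strands for E2F-type motifs (TTTGGCGC, TTTCGCGC, TTTCCCGC and TTTGCCGC), for GGGCGG (a GC box) and for CCAAT. Each line gives 60 bases that end just before the first annotated base of the gene, 5′ to 3′ on the gene's strand, with motif matches in capitals, and a further line gives 30 bases after the E2f2 start.
Mcm2, minus strand, chr6:88898781-88898840: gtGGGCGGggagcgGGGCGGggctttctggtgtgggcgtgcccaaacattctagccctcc
Dna2, plus strand, chr10:62946923-62946982: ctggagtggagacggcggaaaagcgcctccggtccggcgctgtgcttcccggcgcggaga
E2f2, plus strand, chr4:136172214-136172273: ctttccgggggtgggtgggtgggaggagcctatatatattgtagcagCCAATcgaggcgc
E2f2, plus strand, chr4:136172294-136172323: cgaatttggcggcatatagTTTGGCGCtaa

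Of the 4 genes, E2f2 had an E2F-type match, TTTGGCGC beginning at base 40 after its start, and a second annotated E2f2 start had none. Any of the 4 E2F-type motifs was present in 2.26% of 32851 windows of this length, and TTTGGCGC in 0.514%. Mcm2 had 2 GC boxes, at positions -58 and -46 from its start, and a CCAAT match on the other strand at position -175. E2f2 had CCAAT at position -13, and its second start had CCAAT at -174, -133 and -53 and GGGCGG at -154. GGGCGG was present in 35.7% of all windows and CCAAT in 37.4%. The windows of Cdk6 and Dna2 held no match to any of the motifs searched. The Cdk6 window lies within the extent of longer annotated transcripts of the gene and is not printed.

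Cdk6 was detected in 36.1%, 35.7% and 40.7% of cells in the 3 B6 DN1d runs and in 75.3%, 59.6% and 81.7% in the 3 Rag1-/- runs. It was detected in 79 of 86 Tcrd-/- DN1d cells, 91.9% (exact 95% interval 83.9% to 96.7%), and in 78 of 78 DN2 cells, 100% (95.4% to 100%). These intervals cover counting error only. All B6 DN1d runs lay below all other runs. Its mean level over all cells was 3.43, 3.04 and 4.06 in B6 DN1d, 7.83, 5.64 and 7.94 in Rag1-/-, 9.32 in Tcrd-/- and 13.8 in DN2. The order B6 DN1d, Rag1-/-, Tcrd-/- and DN2 was thus the same for share and level.

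Mcm2 was detected in 26.4%, 30.0% and 34.6% of cells in the B6 DN1d runs, and in 64%, 51.9% and 59.8% in the Rag1-/- runs. The Tcrd-/- run had 52 of 86 cells, 60.5% (49.3% to 70.8%), within the range of the Rag1-/- runs, and the DN2 run had 76 of 78, 97.4% (91% to 99.7%). Its mean level was 2.63, 2.54 and 3.66 in B6 DN1d, 6.94, 5.41 and 6.23 in Rag1-/-, 6.39 in Tcrd-/- and 11.9 in DN2. As for Cdk6, no B6 DN1d run reached the lowest run of another group.

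Dna2 was rare outside DN2. Its share was 8.33%, 8.57% and 8.64% in the B6 DN1d runs, 6 or 7 cells each, and 29.2%, 9.62% and 11% in the Rag1-/- runs. The first Rag1-/- run stood well above the other two. Dna2 was detected in 14 of 86 Tcrd-/- cells, 16.3% (9.20% to 25.8%), and in 71 of 78 DN2 cells, 91% (82.4% to 96.3%). Mean levels were 0.538, 0.557 and 0.466 in B6 DN1d, 2.36, 0.594 and 0.869 in Rag1-/-, 1.24 in Tcrd-/- and 7.90 in DN2.

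E2f2 was detected in most cells of every group and did not follow the other genes. Its share was 87.5%, 82.9% and 84% in B6 DN1d, 95.5%, 88.5% and 90.2% in Rag1-/-, 94.2% in Tcrd-/- (81 of 86 cells, 87% to 98.1%) and 83.3% in DN2 (65 of 78 cells, 73.2% to 90.8%). The DN2 run lay within the B6 DN1d range, and the lowest Rag1-/- run, 88.5%, was next to the highest B6 DN1d run, 87.5%. Mean levels were 3.55, 3.73 and 4.29 in B6 DN1d, 5.09, 4.58 and 4.51 in Rag1-/-, 4.98 in Tcrd-/- and 3.65 in DN2. Many E2f2 reactions lay near the ceiling: 27.8% of its 540 detections had a level of up to 4, against 1.72% of 406 for Cdk6, 0.608% of 329 for Mcm2 and 4.86% of 144 for Dna2. With detection set at Ct below 20, E2f2 was detected in 54.6% ± 10.5 (SD, n = 3 runs) of B6 DN1d cells, 73% ± 4.62 (SD, n = 3 runs) of Rag1-/- cells, 77.9% of Tcrd-/- cells and 47.4% of DN2 cells.

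**Figure D1:**
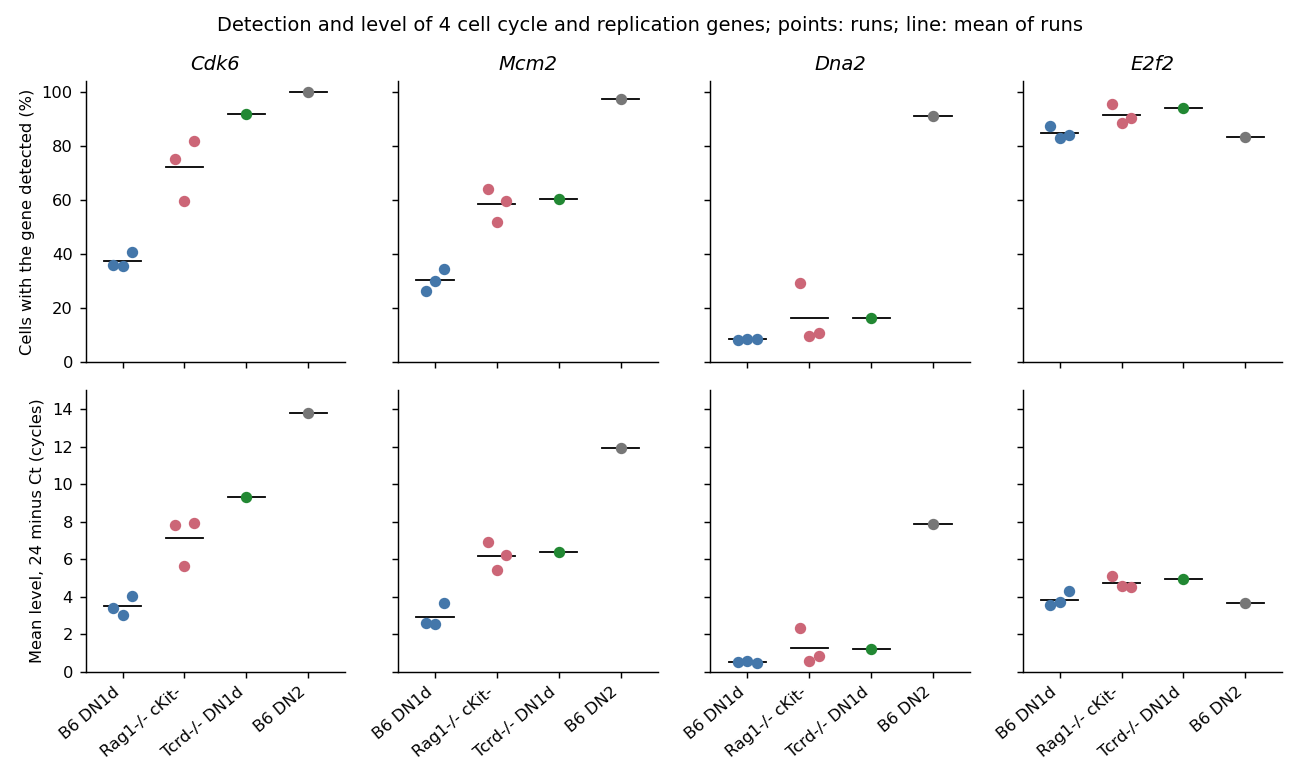
Share of cells with each gene detected (upper, percent) and mean level over all cells (lower, 24 minus Ct, in cycles) in the 4 groups. Points are runs and lines are means of runs. Cdk6, Mcm2 and Dna2 are highest in DN2 (100%, 97.4% and 91% of cells), while E2f2 lies between 82.9% and 95.5% in every run.

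DN2 cells were compared with B6 DN1d cells of the same strain and ages. The gates differ in CD25 and cKit, and B6 DN1d was also gated on CD24. Cdk6, Mcm2 and Dna2 were higher in DN2 by share and by level, and E2f2 was not past the threshold in either. On the log odds scale of the share, the difference was 5.56 ± 0.507 (SE) for Cdk6 (adjusted p = 6.2e-09), 4.25 ± 0.477 for Mcm2 (adjusted p = 9.3e-08) and 4.56 ± 0.531 for Dna2 (adjusted p = 1.4e-07) with limma and Benjamini-Hochberg adjustment over 47 assays. Thus 3 of 4 genes were higher, and of all 47 assays 44.7% were higher and 21.3% lower. For E2f2 the difference was -0.110 with a 95% interval of -1.16 to 0.943 (adjusted p = 0.867). By level, DN2 was higher by 10.3 ± 1.04 (SE) cycles for Cdk6, 8.97 ± 0.739 for Mcm2 and 7.37 ± 0.712 for Dna2 (adjusted p = 0.00075, 0.00047 and 0.00070). The E2f2 level differed by -0.211 (interval -1.23 to 0.808, adjusted p = 0.659). By level 40.4% of all assays were higher and 17% lower. DN2 is 1 run, assumed here to vary like the groups with 3, so that run and group cannot be told apart. Cdk6 was in 78 of 78 DN2 cells, so its log odds there were set by the 0.5 added to each side and the cell number. The spread between runs was also shared over the assays by limma, with 20.0 total degrees of freedom for shares against 4 residual.

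Tcrd-/- DN1d cells, which share gate and ages with B6 DN1d, had more cells with Cdk6 and Mcm2. They are also a single run with a borrowed spread, so that run and group cannot be told apart. The log odds were higher by 2.86 ± 0.507 (SE) for Cdk6 (limma adjusted p = 0.00014) and by 1.24 ± 0.477 for Mcm2 (limma adjusted p = 0.0317). Dna2 (0.696, interval -0.412 to 1.80, adjusted p = 0.283) and E2f2 (1.007, interval -0.0459 to 2.06, adjusted p = 0.1005) did not pass. So 2 of 4 genes were higher in a comparison in which 55.3% of all assays were higher and 0% lower. By level, Cdk6 was higher by 5.81 ± 1.04 (SE) cycles and Mcm2 by 3.44 ± 0.739 (limma adjusted p = 0.00765 and 0.0137), beside 61.7% of all assays. The Mcm2 share in Tcrd-/- cells was the weakest of these calls. It was lost with the number of other assays in the model (limma adjusted p = 0.511, while Cdk6 kept 0.0267), and without B6 DN1d run 1, B6 DN1d run 2 or Rag1-/- run 3 (adjusted p = 0.121, 0.0754 and 0.0592).

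Rag1-/- cKit- cells also had more cells with Cdk6 and Mcm2 than B6 DN1d, and here both groups had 3 runs. The log odds were higher by 1.49 ± 0.359 (SE) for Cdk6 (limma adjusted p = 0.00130) and 1.17 ± 0.337 for Mcm2 (limma adjusted p = 0.00521). For Dna2 the difference was 0.613 (interval -0.170 to 1.40, adjusted p = 0.163) and for E2f2 0.672 (interval -0.0725 to 1.42, adjusted p = 0.113). Across all assays 34% were higher and 25.5% lower. Every Rag1-/- run lay above every B6 DN1d run for the share of all 4 genes, as for 40.4% of assays, and for their mean level, as for 44.7%. By level, 3 of 4 genes were higher, beside 34% of assays: Cdk6 by 3.63 ± 0.732 (SE) cycles, Mcm2 by 3.25 ± 0.522 and E2f2 by 0.867 ± 0.280 (limma adjusted p = 0.0107, 0.00537 and 0.0490). The E2f2 level was lost in 11 of 13 alternatives, with adjusted p up to 0.650, and leaving out any of 5 of the 6 runs was among them. All 3 comparisons share the B6 DN1d runs.

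Among the other groups, DN2 and Tcrd-/- DN1d were 1 run each, so the spread behind their comparison comes wholly from the B6 DN1d and Rag1-/- runs, and run and group cannot be told apart. With that limit, DN2 was higher than Tcrd-/- DN1d for Cdk6, Mcm2 and Dna2 by share (limma adjusted p = 0.00083, 0.00015 and 3e-05) and by level (0.0338, 0.00512 and 0.00297), beside 36.2% and 21.3% of assays. It was also higher than Rag1-/- for the same genes by share (limma adjusted p = 4.3e-07, 8.1e-06 and 1.2e-06) and by level, beside 40.4% and 29.8% of assays. Between Tcrd-/- and Rag1-/-, the Cdk6 share was higher in Tcrd-/- by 1.38 ± 0.507 (SE) log odds (limma adjusted p = 0.0248), as for 42.6% of assays, but its level was not past the threshold (adjusted p = 0.134). Mcm2 and Dna2 did not differ past the threshold between those neighbours, with intervals of -0.921 to 1.07 and -1.03 to 1.19 log odds. E2f2 gave no call among these groups, and its level in DN2 was 1.33 cycles below Tcrd-/- and 1.08 below Rag1-/- with limma adjusted p = 0.0710 and 0.0702.

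Levels were then compared among the cells that had the gene. Median Cdk6 levels in detected cells were 9.39, 8.79 and 10.1 in the B6 DN1d runs, 10.5, 9.91 and 10.1 in Rag1-/-, 10.2 in Tcrd-/- and 13.8 in DN2. The lowest of the 78 DN2 cells, at 11.1, lay above the median of every other run. The mean over detected cells was higher in DN2 than in B6 DN1d by 4.49 ± 0.836 (SE) cycles (limma adjusted p = 0.00383, over the 33 assays with at least 3 detected cells in every run, 9.09% of which were higher and 3.03% lower). It was also higher than in Tcrd-/- and Rag1-/- (adjusted p = 0.0266 and 0.00449), beside 3.03% and 12.1% of those assays. Cdk6 was thus called in DN2 by both its share and its level within detected cells.

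The other members had no such call. Mcm2 medians in detected cells were 9.42, 8.57 and 10.6 in B6 DN1d, 11.1, 10.3 and 10.4 in Rag1-/-, 10.5 in Tcrd-/- and 12.4 in DN2. For DN2 against B6 DN1d the means differed by 2.55 cycles (interval 0.638 to 4.46, limma adjusted p = 0.0583). Dna2 differed by 2.56 cycles (interval 0.583 to 4.53, adjusted p = 0.0583), from B6 DN1d medians of 7.35, 6.45 and 6.72 in 6, 6 and 7 cells. Against B6 DN1d, the Rag1-/- and Tcrd-/- groups had no member past the threshold in detected cells, where 9.09% and 6.06% of the assays were higher. Their largest difference was 1.53 cycles for Dna2 in Tcrd-/- (interval -0.447 to 3.50).

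**Figure D2:**
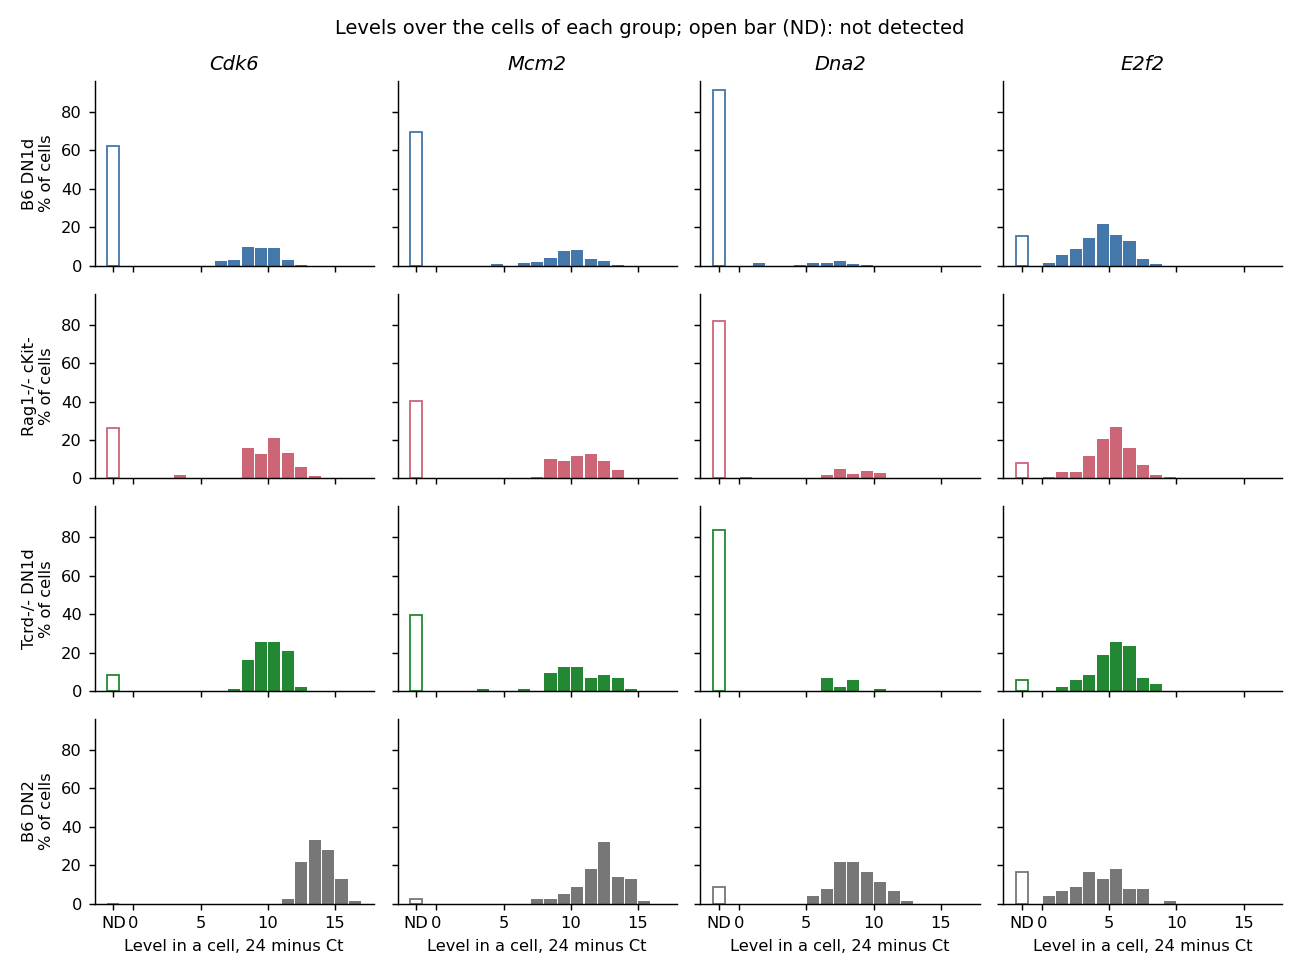
Share of cells of each group (percent) by level of each gene in steps of 1 cycle, with undetected cells as an open bar (ND). In B6 DN1d, Cdk6, Mcm2 and Dna2 show a large undetected bar, DN2 Cdk6 begins at 11.1, and E2f2 runs down to the ceiling in all groups.

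The number of the 4 genes detected per cell gives each cell's position on the combined readout. Its mean was 1.58, 1.57 and 1.68 in the B6 DN1d runs, 2.64, 2.10 and 2.43 in the Rag1-/- runs, 2.63 in Tcrd-/- and 3.72 in DN2. Rag1-/- runs averaged 2.39 ± 0.274 (SD, n = 3) and B6 DN1d runs 1.61 ± 0.0590 (SD, n = 3), without overlap. The two-sided exact permutation test gave p = 0.1, the smallest that 3 against 3 runs allow. Because E2f2 was in nearly every cell, the count without it says more: 0.764 ± 0.0680 of 3 genes in B6 DN1d, 1.47 ± 0.241 in Rag1-/- (SD, n = 3 runs each), 1.69 in Tcrd-/- and 2.88 in DN2.

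In B6 DN1d, 49.6% ± 4.47 (SD, n = 3 runs) of cells had none of Cdk6, Mcm2 and Dna2, and 4.07% ± 1.5 had all 3. In Rag1-/- these shares were 16.8% ± 8.83 and 12.3% ± 8.95, the latter from runs of 22.5%, 5.77% and 8.54%. In Tcrd-/- 7 of 86 cells had none (8.14%) and 14 had all 3 (16.3%). In DN2, 71 of 78 cells had all 3 and 0 of 78 had none (upper limit 3.85%). With E2f2 added, 61 of 78 DN2 cells had all 4 genes.

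**Figure D3:**
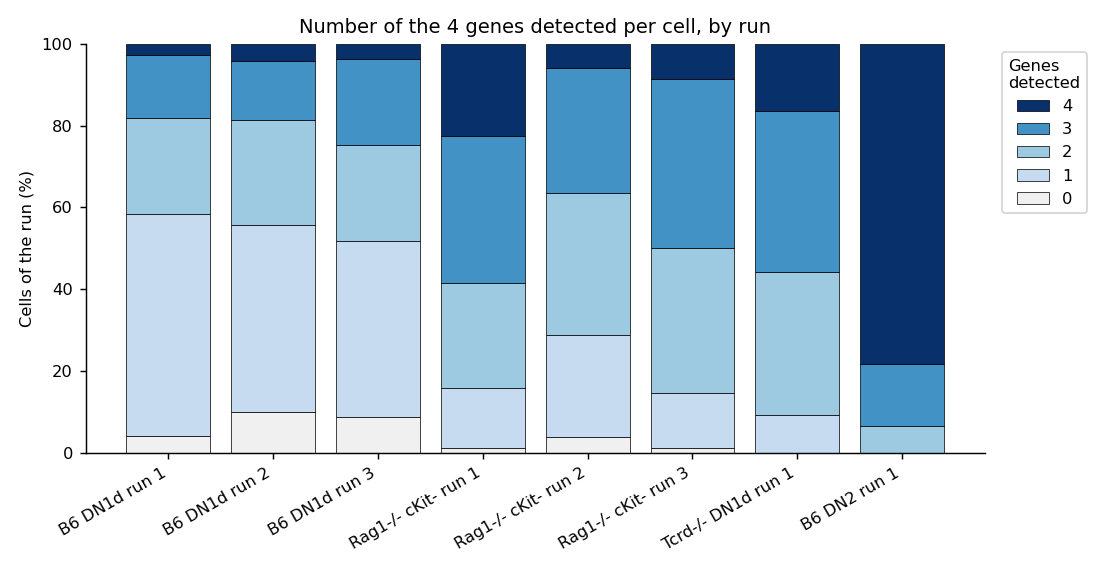
Percent of the cells of each run with 0 to 4 of Cdk6, Mcm2, Dna2 and E2f2 detected. The DN2 bar is mostly cells with 4 genes (78.2%), and cells with 1 gene are the largest class in each B6 DN1d run (43.2% to 54.2%).

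The combinations were nested in some groups. In Tcrd-/-, Mcm2 was found only with Cdk6 (52 of 52 Mcm2 cells) and Dna2 only with both (14 of 14), and the other cells had Cdk6 alone (27) or none (7). DN2 had the same 3 kinds of cell with any of the genes: 71 with all 3, 5 with Cdk6 and Mcm2, and 2 with Cdk6 alone. Cdk6 was in 78 of 78 DN2 cells, so the other genes could only be found with it there. In B6 DN1d, where Cdk6 was in 84 of 223 cells, the nesting was looser. Of 68 Mcm2 cells 26 had no Cdk6, and of 19 Dna2 cells 3 had neither of the other genes. In Rag1-/-, 24 of 133 Mcm2 cells had no Cdk6, and 37 of 40 Dna2 cells had Mcm2. Such counts depend on how common each gene is. Cdk6 was in 79 of 86 Tcrd-/- and 165 of 223 Rag1-/- cells. The nesting was not tested against these shares.

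Co-detection was measured in each run as the natural log odds ratio of 2 genes being found in the same cell, which is 0 where they are independent. It is a description, given without a test. Cdk6 with Mcm2 stood at 1.51, 1.56 and 1.24 in the B6 DN1d runs, 0.771, 1.24 and 0.954 in Rag1-/- and 3.35 in Tcrd-/-. Mcm2 with Dna2 stood at 1.12, 2.38 and 0.975 in B6 DN1d, 2.19, 2.52 and 1.49 in Rag1-/- and 3.26 in Tcrd-/-. Cdk6 with Dna2 was 1.27, 1.29 and 1.28 in B6 DN1d, but 0.709, -0.0430 and 0.323 in Rag1-/-. The replication pair was thus the closer pair in every Rag1-/- run, and the pairs with Cdk6 were spread less across the B6 DN1d runs.

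With every Ct below the ceiling counted as detected, E2f2 showed no steady link in B6 DN1d. Its log odds ratio with Cdk6 ran from -0.320 to 1.35 over the B6 DN1d runs, with Mcm2 from -0.438 to 0.729 and with Dna2 from -1.48 to 1.19. With detection at Ct below 22, its ratio with Cdk6 was above 0 in each B6 DN1d run, at 0.236, 0.220 and 0.913. Its ratios with Mcm2 and with Dna2 still changed sign between the B6 DN1d runs at that limit. With the ceiling as the limit, the ratio of E2f2 with Dna2 was above 0 elsewhere: 0.544 and 0.902 in Rag1-/- runs 2 and 3, 0.860 in Tcrd-/- and 1.52 in DN2. Within strata of the number of other assays these were -0.100, 0.292, 0.126 and 1.38. E2f2 was in 40 of 40 Rag1-/- cells with Dna2 and 165 of 183 without, and in Tcrd-/- in 14 of 14 and 67 of 72. Its values with Cdk6 and with Mcm2 lay on either side of 0 in Rag1-/- and below 0 in Tcrd-/-. In B6 DN1d, 3 of 6 member pairs were above 0 in all 3 runs, beside 42.2% of the 666 pairs of assays found in 5% to 95% of cells. In Rag1-/- it was 2 of 3 pairs, beside 35.9% of 351. The medians of the mean log odds ratio were 0.824 for member pairs and 0.370 for all pairs in B6 DN1d, and 0.987 and 0.294 in Rag1-/-. Within strata of the number of other assays (Mantel-Haenszel) the counts of member pairs above 0 in all runs were again 3 and 2, beside 35.1% and 35.3% of all pairs.

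**Figure D4:**
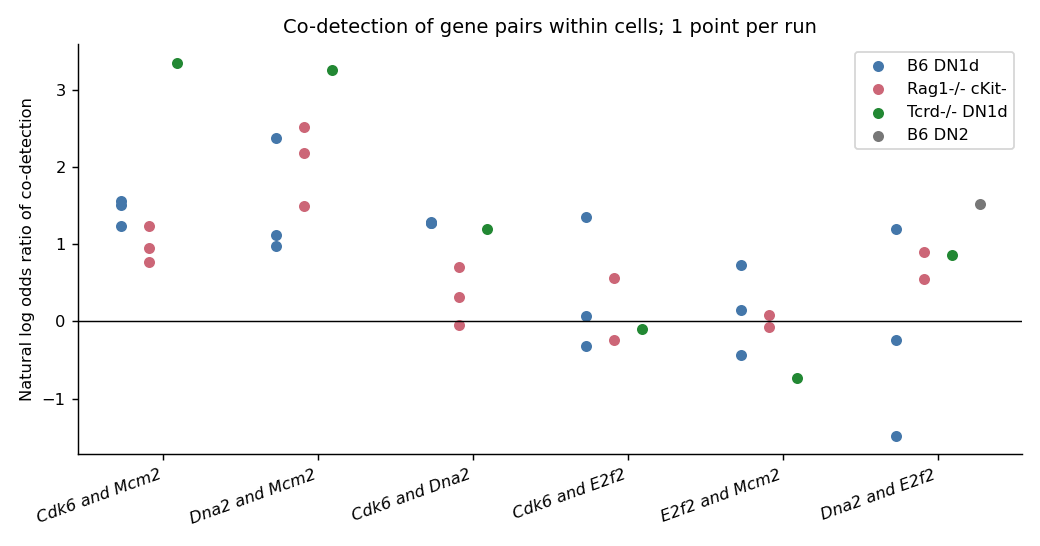
Natural log odds ratio of co-detection within cells for each pair of genes, 1 point per run, for pairs in which both genes were in 5% to 95% of cells. Points above 0 mean the genes were found together more often than if independent. Mcm2 with Cdk6 or Dna2 lies above 0 in every run shown (0.771 to 3.35), and pairs with E2f2 lie on either side. DN2 has the pair Dna2 and E2f2 alone, since Cdk6 and Mcm2 were in more than 95% of its cells.

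Among detected cells the levels also moved together in DN2. Across cells there, Pearson's r was 0.694 between Mcm2 and Dna2 (n = 71 cells), 0.646 between Cdk6 and Mcm2 (n = 76) and 0.602 between Cdk6 and Dna2 (n = 71). Each level also followed Gapdh of the same cell, with r of 0.908 for Cdk6 (n = 78), 0.713 for Mcm2, 0.664 for Dna2 and 0.639 for E2f2. In the Tcrd-/- run, r with Gapdh was 0.416 for Cdk6 and 0.423 for Mcm2. The first Rag1-/- run had r = 0.597 between Mcm2 and Dna2 (n = 24) and 0.163 between Cdk6 and Mcm2 (n = 46). Cells are not replicates, and these are descriptions of single libraries.

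The Mcm2 level was higher in cells that also had the other 3 genes. In Tcrd-/- it was 12.6 ± 1.21 (SD over 14 cells) with all of them and 9.85 ± 1.76 (SD over 34 cells) with 2 of them. In the first Rag1-/- run it was 11.8 ± 2.59 (20 cells) against 10.4 ± 1.49 (30 cells), in the third 11.8 ± 1.69 (7 cells) against 10.4 ± 1.81 (33 cells), and in DN2 12.6 ± 1.33 (61 cells) against 11.4 ± 1.80 (12 cells). The Gapdh level also differed between such cells: in cells with 3 and with 4 members it averaged 15.2 and 15.7 in Tcrd-/-, 15.8 and 15.95 in the first Rag1-/- run, 14.98 and 15.2 in the third, and 14.8 and 15.3 in DN2. Its part in the result was not tested. E2f2 varied by run. It was 3.98, 4.65, 5.53 and 6.47 with 0, 1, 2 and 3 of the other genes in the first Rag1-/- run, and 5.67, 5.09 and 4.86 with 0, 1 and 2 in the second. In the second B6 DN1d run it was 4.49, 4.69 and 4.37. In the third Rag1-/- run it was 4.44, 4.18, 5.32 and 6.97 with 0 to 3 of the others, and in Tcrd-/- 4.78, 4.82, 5.43 and 6.05. The first B6 DN1d run had 3.84, 3.97 and 4.87 with 0 to 2, and the third 5.16, 4.67 and 5.53. The E2f2 level was thus highest with the most other genes in these runs, except in the second Rag1-/- and second B6 DN1d runs. These are spreads over cells of 1 run, and no test was made.

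Lineage genes were read next to the members in the same cells. In B6 DN1d, Cdk6 was most closely co-detected with Tox (mean log odds ratio 1.41 over 3 runs), a factor of T and innate lymphoid development, with the Wnt pathway factor Lef1 (1.18) and with Sox4 (1.15, from 0.0970 to 2.45). Within strata of the number of other assays, Tox was at 1.40, Lef1 at 1.05 and Sox4 at 0.725 (from -0.308 to 1.80). Cdk6 was in 66 of 131 cells with Tox and in 18 of 92 without it. With Lef1 it was in 56 of 108 cells and without it in 28 of 115. Of 8 T lineage assays in range, 4 were above 0 with Cdk6 in all 3 runs and the median was 0.947, beside 30.3% of 33 assays and a median of 0.410. The values for 9 assays of the interleukin 17 programme were 4 and 0.410, and for 4 innate and type 1 assays 1 and 0.427. Within strata, the interleukin 17 programme had 2 of 9 with a median of 0.179, the T lineage assays 4 of 8 with 0.866, and all 33 assays 8 with 0.271.

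Mcm2 in B6 DN1d stood closest to Smo, the Hedgehog signal transducer (0.836), to the E protein Tcf12 (0.778) and to Tox (0.769, from -0.0856 to 1.42 over the runs). Above 0 in all runs were 4 of 8 T lineage assays (median 0.502), beside 21.2% of all 33 (median 0.0600). For Dna2 the closest were Maf (1.14), Smo (1.05) and the homing receptor Ccr9 (0.735), each resting on 6 or 7 Dna2 cells a run. Within strata of the number of other assays, Maf was at 0.326 and Ccr9 at 0.402 (from -0.540 to 0.879), and Smo was at 0.761. For E2f2 they were Egr2 (1.33, from -0.556 to 2.33), Sox4 (1.22) and the interleukin 17 receptor subunit Il17re (0.734). Within strata, Egr2 was at 0.849, Il17re at 0.344 (from -0.226 to 0.953) and Sox4 at 1.21.

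In Rag1-/- cells, Cdk6 stood closest to Zbtb16, which encodes the innate-like T cell factor PLZF (1.26, from 0.847 to 1.78). Next were Runx1 (1.15) and Ccr9 (1.13, from 0.147 to 2.42). By run, Cdk6 was in 49 of 59, 17 of 24 and 51 of 56 cells with Zbtb16, and in 18 of 30, 14 of 28 and 16 of 26 without it. Cells with Zbtb16 had more other assays detected in these runs, with means of 21.98, 20.04 and 23.4 against 18.97, 19 and 18.4. Within strata of that number the mean log odds ratio was 1.15 for Zbtb16, 0.984 for Runx1 and 0.878 for Ccr9 (from -0.104 to 2.06). Mcm2 did not share the link with Zbtb16 in every run: it was in 42 of 59, 14 of 24 and 33 of 56 cells with Zbtb16 and in 15 of 30, 13 of 28 and 16 of 26 without it.

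Mcm2 in Rag1-/- cells instead stood closest to the E protein assays Tcf3 E47 (0.883, from 0.00550 to 1.38) and Tcf3 E12 (0.736) and to Tox (0.732). Of 7 T lineage assays, 6 were above 0 with Mcm2 in all runs (median 0.585), beside 54.2% of 24 (median 0.387). For Cdk6 it was 2 of 7 (median 0.814), beside 37.5% of 24 (median 0.710). Dna2 stood closest to the kinase Syk (0.651, from -0.295 to 2.03), Tcf12 (0.646, from 0.0440 to 1.75) and Tcf3 E47 (0.529, from -0.295 to 1.21). These values rest on 26, 5 and 9 Dna2 cells by run. Within strata Tcf12 was at 0.399. E2f2 was outside the range for co-detection in the first Rag1-/- run, so no assays are named for it there.

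Myb, a factor of dividing progenitors, was rare in Rag1-/- cells, with 14 of 223. Dna2 was in 9 of these 14, as 4 of 4, 0 of 4 and 5 of 6 by run, and in 31 of 209 cells without Myb. Mcm2 was in 13 of the 14 cells and in 120 of 209 others, and Cdk6 in 13 of 14 and 152 of 209. In Tcrd-/- cells, where Myb was in 79 of 86, Cdk6 was in 78 of 79 cells with Myb and 1 of 7 without, and Mcm2 in 52 of 79 and 0 of 7. The counts for Cdk6 were the same by Tcf7 and by Tox, and the 7 cells without Myb had a mean of 18.4 other assays against 29.1. In the B6 DN1d runs, Dna2 was in 3 of 39, 5 of 34 and 2 of 30 cells with Myb, and in 3 of 33, 1 of 36 and 5 of 51 without it. The numbers are small, and the Rag1-/- run without Dna2 in its 4 Myb cells shows how far they move.

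The SOX factor Sox13, a marker of interleukin 17 producing gamma delta cells, had no steady link with the members in B6 DN1d. By run, Cdk6 was in 12 of 36, 12 of 31 and 15 of 26 cells with Sox13, and in 14 of 36, 13 of 39 and 18 of 55 without it. Mcm2 was in 7 of 36, 10 of 31 and 11 of 26 with Sox13, and in 12 of 36, 11 of 39 and 17 of 55 without. The sign of the log odds ratio changed between runs for both genes. The T commitment factor Bcl11b was likewise near even in B6 DN1d: Cdk6 was in 57 of 155 cells with it and 27 of 68 without. With Tcf7, Cdk6 was in 64 of 135 cells and without it in 20 of 88, and with Id2, an E protein inhibitor, in 58 of 146 and 26 of 77.

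Of the myeloid and dendritic genes, Csf2rb2 and Gp49a went the other way for Cdk6 and Mcm2 in B6 DN1d. The panel holds 4 of 6 listed genes: Csf1r, Csf2rb2, Gp49a and Spi1, of which Csf2rb2 and Gp49a were in range in B6 DN1d. Cdk6 and Mcm2 were below 0 with both in all 3 B6 DN1d runs, where 12.1% and 15.2% of assays were below 0. Cdk6 was in 2 of 34 cells with Csf2rb2, the beta chain of a cytokine receptor, and in 82 of 189 without it. Mcm2 was in 4 of 34 and 64 of 189. Dna2 changed sign between the B6 DN1d runs, from -1.52 to 0.595 with Csf2rb2 and from -1.59 to 0.348 with Gp49a. Spi1 was in range in the DN2 run, at 0.678 with Dna2 and 0.809 with E2f2. Over the 8 runs, r of the logit share of Spi1 was 0.646 with Cdk6, 0.686 with Mcm2, 0.794 with Dna2 and -0.530 with E2f2. With Cdh1 (E-cadherin), which was singled out after its values were seen, Cdk6 was in 2 of 32 B6 DN1d cells and in 82 of 191 without. In Tcrd-/- cells it was in 1 of 7 and 78 of 79, and in Rag1-/- cells in 57 of 81 and 108 of 142.

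Cells with Csf1r, Csf2rb2 or Gp49a made up 12.5%, 17.1% and 25.9% of the B6 DN1d runs, 1.12%, 0% and 2.44% of the Rag1-/- runs, 9.30% of Tcrd-/- and 3.85% of DN2, and so moved with the groups. Csf1r itself was found in 0 cells except 2 in DN2. The mean summed level of the 4 listed genes was 2.24 to 5.35 in the B6 DN1d runs, 0 to 0.419 in Rag1-/-, 2.00 in Tcrd-/- and 6.80 in DN2, where Spi1, which early T progenitors also express, was in 63 of 78 cells. Without these cells, Cdk6 was in 80 of 181 B6 DN1d cells (44.2%), 163 of 220 Rag1-/- cells (74.1%), 77 of 78 Tcrd-/- cells (98.7%) and 75 of 75 DN2 cells. Mcm2 was in 34.8%, 59.5%, 65.4% and 97.3%. Each member call by share was the same in this alternative, which was added after the data were seen, and by level the E2f2 call in Rag1-/- was lost (limma adjusted p = 0.0985).

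Members, like most assays of the panel, were detected more often in cells with more of the 44 other assays detected. This touches the counts above. The log odds of detection per 5 further assays were taken over all cells with a term for each run. They were 0.706 for Cdk6, 0.403 for Mcm2, 0.337 for Dna2 and 0.259 for E2f2. Over the panel they ran from -1.32 for Csf2rb2 to 2.31 for Blk. Most other assays had higher values than Mcm2, Dna2 and E2f2, and Cdk6 lay near the middle of the panel. In B6 DN1d, cells with 1 member had a mean of 17.8, 18.4 and 15.7 other assays by run, and cells with 3 had 18.3, 19.7 and 19.1. In Tcrd-/-, the 8 cells with 1 member had 20.6 others, against 28.8, 28.8 and 30.4 in cells with 2, 3 and 4.

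At matched numbers of other assays, DN2 was highest for Cdk6, Mcm2 and Dna2 in the 2 classes where it had cells, 20 to 24 and 25 or more. Rag1-/- was above B6 DN1d for Cdk6 and Mcm2 in both. The gap was smaller at 15 to 19: Cdk6 was in 49.3% of 71 B6 DN1d and 57.7% of 52 Rag1-/- cells, and Mcm2 in 35.2% and 50%. By run, Cdk6 there was 65%, 55.6% and 36.4% in B6 DN1d and 50%, 60.9% and 63.6% in Rag1-/-. Under 15, Cdk6 was in 15 of 70 B6 DN1d and 2 of 10 Rag1-/- cells, and Mcm2 in 18 of 70 and 0 of 10. In cells with 20 to 24 others, Cdk6 was in 13 of 46 B6 DN1d cells (28.3%), 105 of 129 Rag1-/- cells (81.4%), 4 of 6 Tcrd-/- cells and 36 of 36 DN2 cells. Mcm2 was in 23.9%, 66.7%, 33.3% and 97.2% of them, and Dna2 in 8.70%, 20.2%, 0% and 88.9%. In cells with 25 or more, Cdk6 was in 58.3% of 36 B6 DN1d cells, 87.5% of 32 Rag1-/- cells, 98.7% of 76 Tcrd-/- cells and 100% of 42 DN2 cells. Mcm2 was in 38.9%, 65.6%, 65.8% and 97.6%, and Dna2 in 13.9%, 12.5%, 18.4% and 92.9%, so that Dna2 in Rag1-/- was not above B6 DN1d there. The Tcrd-/- class of 20 to 24 holds 6 cells. E2f2 was in 77.8% to 100% of cells in these 2 classes in every group. Standardised over the classes of 15 to 19 and 20 to 24, each of which held at least 11 cells in every run of both groups, the number of members per cell was 2.40 ± 0.161 in Rag1-/- and 1.61 ± 0.0821 in B6 DN1d (SD, n = 3 runs each; exact permutation p = 0.1).

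**Figure D5:**
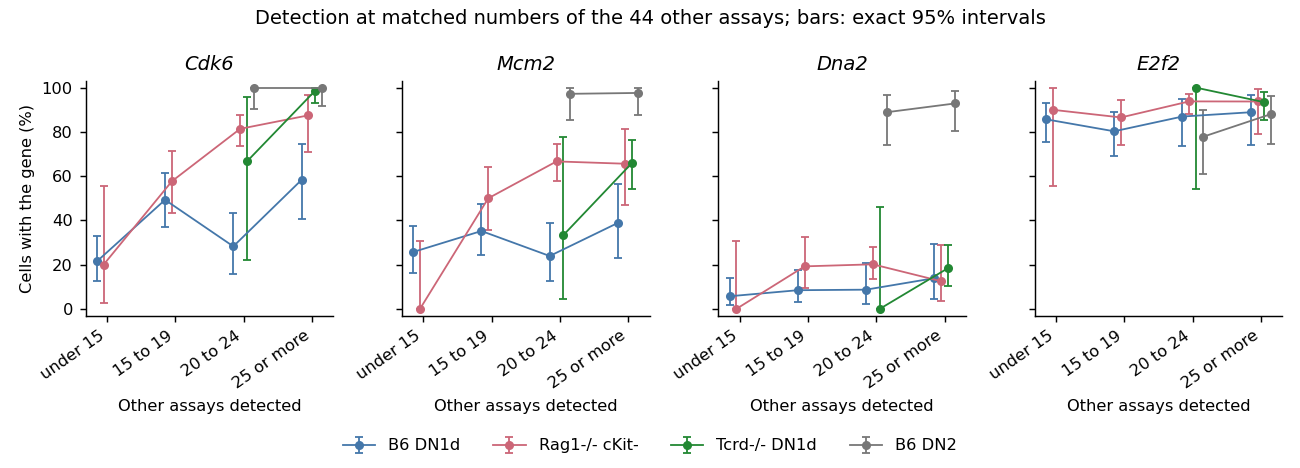
Share of cells with each gene (percent, exact 95% binomial interval) in classes of the number of the 44 other assays detected, all cells of a group pooled, classes with under 5 cells left out. Within the class of 20 to 24, DN2 stands highest for Cdk6, Mcm2 and Dna2 (100%, 97.2% and 88.9%). Cdk6 is there at 28.3% in B6 DN1d and 81.4% in Rag1-/-, and in the class of 15 to 19 at 49.3% and 57.7%.

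Over the 8 runs, the logit shares of Cdk6, Mcm2 and Dna2 followed one another, with Pearson's r of 0.966 for Cdk6 and Mcm2, 0.958 for Mcm2 and Dna2 and 0.900 for Cdk6 and Dna2, and with E2f2 r was between -0.0743 and 0.111. The runs fall into separate groups, so these values describe the group means and carry no p. The 1 DN2 run can set such an r by itself. Csf1r, found in 2 DN2 cells and in no other group, had r of 0.861 with Dna2, 0.825 with Mcm2 and 0.731 with Cdk6. The assays most like Cdk6 were Tcf3 E47 (0.985), Notch1 (0.972) and Tox (0.969), and the same 3 were most like Mcm2 (0.983, 0.978 and 0.955). Those most like Dna2 were Notch1 (0.962), Tcf3 E47 (0.9497) and Syk (0.935). For E2f2 the closest were Gzma (0.713), Maf (0.664) and Il17re (0.653). Likeness over runs and co-detection within cells overlapped in part. Tox was also among the 3 closest assays within cells for Cdk6 and Mcm2 in B6 DN1d and for Mcm2 in Rag1-/-. So were Tcf3 E47 for Mcm2 and Dna2 in Rag1-/-, Syk for Dna2 in Rag1-/- and Il17re for E2f2 in B6 DN1d. Both Syk and Tcf3 E47 changed sign with Dna2 between the Rag1-/- runs. Notch1 was not among the 3 closest assays of any member within B6 DN1d or Rag1-/- cells.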

How the data were processed

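Cells were captured on a Fluidigm C1, and complementary DNA went through 18 preamplification cycles and a quantitative PCR of 30 cycles with EvaGreen dye, per the labels' protocols. The deposited values are threshold cycles, a score with no normalization, from 29280 reactions, of which 50.5% stood at 24 and were read as not detected. The sources used here do not give how Ct was called or who set the ceiling. All columns were matched to samples by title.

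The replicate was the run, read from each title and numbered here in accession order, so the numbers pair nothing. Shares became empirical logits (0.5 added to each side), and levels became means over all cells. Both were fitted with limma 3.58.1 (R 4.3.3) over all 8 runs with 1 mean per group and 4 groups, with Benjamini-Hochberg adjustment across 47 assays (1 had no detection) and a threshold of 0.05. Assays in 5% to 95% of cells of a run entered co-detection. Other values came from Python 3.11.15 with scipy 1.17.1, pandas 2.3.3 and numpy 2.4.6, and plots from matplotlib 3.10.9. All fits were tested on simulated panels first. Alternatives changed the Ct limit, the cells kept, the summary of level, the scaling and the runs, and the one without cells that had Csf1r, Csf2rb2 or Gp49a was added after the data were seen.

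The text names all 4 members, for each the 3 assays of highest r over runs and of highest mean log odds ratio in B6 DN1d and Rag1-/- (E2f2 in B6 DN1d only, being out of range in Rag1-/-), Sox13, Zbtb16, Tcf7, Bcl11b, Myb, Id2 and Gapdh. Members, lists, tests and rules were chosen with earlier results of these data known. Of the lists, 3 progenitor genes (Cpa3, Myb and Spi1) and 0 of 4 B cell genes were in the panel. In B6 DN1d, of the 2 progenitor assays in range, 0 were above 0 in all runs with Cdk6, Mcm2 or E2f2 and 1 with Dna2. A further gene of the panel is counted in lists and totals but not reported here. Of 48 assay names, 43 matched a RefSeq symbol and 2 a synonym. Sequences are from RefSeq tables of GRCm38.p6.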

Additional observations from a re-analysis of the deposited data

How the results depend on the processing

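Of the recomputed values for single genes, 274 kept direction and side of the threshold, 21 lost the call, 4 gained one and 1 changed sign. The number of members called by share in Tcrd-/- against B6 DN1d, 2 as reported, was 1 with the number of other assays in the model and 1 to 3 with single runs left out. It was 1 without B6 DN1d run 1, B6 DN1d run 2 or Rag1-/- run 3, where Mcm2 was lost, and 3 without Rag1-/- run 1, where E2f2 was gained (limma adjusted p = 0.0385). In detected cells only, the members called by level were 1 in DN2 (3 as reported), 0 in Tcrd-/- (2 as reported) and 0 in Rag1-/- (3 as reported). The E2f2 level in DN2 minus B6 DN1d ran from -0.363 to 0.00747 cycles with single runs left out, changing sign without B6 DN1d run 3, and was not called in any of these. With detection at Ct below 22, the member pairs above 0 in all Rag1-/- runs were 4 of 6, against 2 of 3, beside 37.4% of 406 pairs. More pairs were in range at that limit, and values also moved. E2f2 with Mcm2 went from -0.0742 to 0.639 in Rag1-/- run 3, where it was in range at both limits. In B6 DN1d the count was 4 of 6 at Ct below 22, against 3 of 6, beside 44.4% of 703 pairs. The pair gained there was Cdk6 with E2f2, so E2f2 co-detection depended on the Ct limit. Causes of these shifts were not tested further. The difference in members per cell between Rag1-/- and B6 DN1d was 0.650 to 0.922 with single runs left out. No paired analysis was possible because the run numbers were assigned here in accession order and pair nothing.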
